A study of Homo sapiens with 12 samples.

Results

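The miRNAs described here are 7 mature miRNAs tied to metabolism: hsa-miR-210-3p, hsa-miR-33a-5p, hsa-miR-33b-5p, hsa-miR-378a-3p, hsa-miR-378a-5p, hsa-miR-103a-3p and hsa-miR-107. They were chosen by name, for known links to low oxygen or for lying inside genes of lipid, mitochondrial and coenzyme A metabolism, and make up 7 of the 1204 human miRNAs counted. All 7 were listed, and 6 passed the filter on low counts. hsa-miR-33b-5p did not pass.

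Small RNA was sequenced from MV4-11 and Molm-14, established human lines of acute myeloid leukemia (AML), each with an internal tandem duplication in FLT3. In the MPC1 KO cells, MPC1, a subunit of the mitochondrial pyruvate carrier, was targeted by CRISPR/Cas9 from a lentiviral construct with a GFP marker and a single guide RNA, and the EV cells carried the Empty Vector. Cells of both lines were cultured in normoxia, and there were 3 libraries in each of 4 groups, 12 in all. The question was whether loss of the carrier subunit, which blocks entry of pyruvate into mitochondria, moves these miRNAs. The sources used here do not say whether the MPC1 KO cells were pools or clones, nor whether separate cultures gave the 3 libraries of each group, so p-values measure only the spread between these libraries. Small RNA libraries do not measure MPC1 mRNA, so the deletion itself was not checked here. The authors reported reduced MPC1 transcripts by qPCR in the MPC1 KO cells of both lines. They also showed a Western blot of MPC1 protein for Molm-14, and reported lower basal and maximal respiration in both lines.

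A mature miRNA is cut from 1 arm of a hairpin, the 5p or the 3p arm, and guides repression of mRNAs that pair with its seed. miR-210 is the best known miRNA induced by the hypoxia factor HIF-1, and it represses the iron-sulfur cluster assembly proteins ISCU1/2 and so slows mitochondrial respiration. miR-33a and miR-33b lie within the genes of the sterol regulatory factors SREBP2 and SREBP1 and repress the cholesterol exporter ABCA1 and genes of fatty acid oxidation. miR-378a lies within PPARGC1B, the gene of the mitochondrial coactivator PGC-1 beta, and miR-103 and miR-107 lie within the pantothenate kinase genes PANK3, PANK2 and PANK1, whose enzymes start coenzyme A synthesis.

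The mature sequences of the 7 miRNAs, and of hsa-miR-33b-3p, the abundant arm of the miR-33b hairpin in these cells, are shown because shared seeds and near-identical sequences bear on what each count can separate. They are from RefSeq (GRCh38.p14), 5′ to 3′, with the seed (bases 2 to 8) in capitals.
hsa-miR-210-3p: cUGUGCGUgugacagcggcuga
hsa-miR-33a-5p: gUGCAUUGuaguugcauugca
hsa-miR-33b-5p: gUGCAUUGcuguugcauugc
hsa-miR-33b-3p: cAGUGCCUcggcagugcagccc
hsa-miR-378a-3p: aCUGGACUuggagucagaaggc
hsa-miR-378a-5p: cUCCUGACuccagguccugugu
hsa-miR-103a-3p: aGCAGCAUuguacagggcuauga
hsa-miR-107: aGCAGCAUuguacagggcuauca
hsa-miR-33a-5p and hsa-miR-33b-5p share a seed and differ by U9C and A10U, with positions counted from 1 at the 5′ end of hsa-miR-33a-5p, which is also longer by 1 base. hsa-miR-103a-3p and hsa-miR-107 share a seed and differ only by G22C, counted in the same way from hsa-miR-103a-3p. The seed of hsa-miR-378a-3p was shared with 4 other listed miRNAs, hsa-miR-378b, hsa-miR-378c, hsa-miR-378f and hsa-miR-378i, among those matched to the table. hsa-miR-378d, with 0 to 2 counts in a library, was listed but had no entry there, so its seed was not compared. No other listed miRNA of the RefSeq table had the seed of hsa-miR-210-3p or of hsa-miR-378a-5p.

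In GRCh38, with GENCODE annotation, every hairpin lay in an intron of its host gene and on the host's strand. MIR210 is at chr11:568089-568198 in intron 1 of the noncoding gene MIR210HG. MIR33A is at chr22:41900944-41901012 in intron 16 of SREBF2, and MIR33B at chr17:17813836-17813931 in intron 16 of SREBF1. MIR378A is at chr5:149732825-149732890 in intron 1 of PPARGC1B. MIR103A1 is at chr5:168560896-168560973 in intron 5 of PANK3, MIR103A2 at chr20:3917494-3917571 in intron 5 of PANK2 and MIR107 at chr10:89592747-89592827 in intron 5 of PANK1.

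The whole mature sequence of hsa-miR-103a-3p occurred at 2 places in the genome, MIR103A1 and MIR103A2, and that of hsa-miR-107 at 1. The first 18 bases of either occurred at the same 3 places. The whole sequence of hsa-miR-378a-3p occurred at 2 places, of which 1 lay in a miRNA gene, and its first 18 bases at 12 places, of which 4 lay in miRNA genes (MIR378A, MIR378C, MIR378D1 and MIR378D2). The other 4 of the 7 mature sequences each occurred once. Among these, the first 18 bases of hsa-miR-378a-5p occurred at 3 places, of which 1 lay in a miRNA gene (MIR378A). Those of hsa-miR-210-3p, hsa-miR-33a-5p and hsa-miR-33b-5p occurred at 1 place each. How the authors counted reads that match several places is not given in the sources used here, and its part in the levels below was not tested. Over the 1068 listed miRNAs found in the RefSeq table, the 38 with 2 or more loci had a median mean count of 15.3 and the 1030 with 1 locus had 8.71. The highest mean count was 23528 with 2 or more loci and 956275 with 1. Picked after seeing the data, the 2-locus hsa-miR-181a-5p, hsa-miR-24-3p and hsa-miR-16-5p had means of 2.83, 13.1 and 110. hsa-miR-103a-3p, also with 2 loci, had 296, and hsa-miR-15b-5p, with 1, had 4568. The medians do not show how such reads were counted.

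The deposited values were raw read counts, with 3870104 to 8683456 counts per library and TMM factors, which correct the library totals, of 0.940 to 1.08. Levels are given as CPM, the usual counts-per-million unit, taken over the TMM-scaled library total. Replicates of a group differed by more than counting noise, with a chi-square per degree of freedom of 11.4 to 154. The blood cell markers hsa-miR-142-3p, hsa-miR-142-5p, hsa-miR-223-3p and hsa-miR-181a-5p, the last with 0 to 8 counts in a library, summed to 26974 to 35659 CPM in MV4-11 and to 54952 to 66471 in Molm-14, and the lymphocyte marker hsa-miR-150-5p had at most 4.0 CPM. The erythroid markers hsa-miR-451a and hsa-miR-144-3p summed to at most 11.7 CPM in any library. The epithelial markers hsa-miR-200c-3p, hsa-miR-141-3p and hsa-miR-205-5p, the last at 0 in at least 1 library of each group, summed to 198 to 261 CPM in MV4-11 and to 105 to 137.15 in Molm-14.

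None of the 6 tested miRNAs changed with MPC1 KO in either cell line past the threshold of 0.05 on the adjusted p (edgeR's quasi-likelihood test, Benjamini-Hochberg adjustment over 659 miRNAs). In MV4-11 the count was 0 of 6, where 3.03% of all tested miRNAs were called, and it was also 0 at an unadjusted p under 0.05 (14% of all) and 0 with DESeq2 and with limma-voom. In Molm-14 it was 0 of 6, where 6.83% were called, 1 at an unadjusted p under 0.05 (hsa-miR-378a-3p, against 19.4% of all), and 0 with DESeq2 and with limma-voom. The lowest adjusted p of the 6 was 0.415 in MV4-11 and 0.0791 in Molm-14. For the difference between the effects in the 2 lines it was 0 of 6, where 6.68% were called, with 1 at an unadjusted p under 0.05 (18.5% of all) and 0 with DESeq2 and limma-voom. Between the EV controls of the 2 lines, 3 of the 6 differed, 1 higher and 2 lower in Molm-14, where 61.9% of all tested miRNAs were called, 33.5% higher and 28.4% lower. The same 3 were those whose EV libraries did not overlap between the lines, as for 64.2% of all, and total-count scaling added hsa-miR-107 to them. All 4 comparisons come from 1 fit and share the EV libraries.

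The median log2 fold change of the 6 was -0.07 in MV4-11 and 0.24 in Molm-14, where the median over all 659 was -0.00 and -0.01. In MV4-11 the libraries of MPC1 KO and EV did not overlap for 1 of the 6, hsa-miR-378a-5p, where they did not overlap for 17.5% of all tested miRNAs. In Molm-14 they did not overlap for 4 of the 6, each with MPC1 KO above EV, where MPC1 KO lay wholly above EV for 12.3% and the groups did not overlap in either direction for 27.2%. These 4 were hsa-miR-210-3p, hsa-miR-103a-3p, hsa-miR-107 and hsa-miR-378a-3p. Which miRNAs did not overlap depended on the scaling. Scaled to total counts alone, a check added after seeing the data, hsa-miR-378a-5p overlapped in MV4-11 (0 of 6 without overlap). In Molm-14 hsa-miR-107 overlapped and hsa-miR-33a-5p did not, which left 4 of 6. The gap of hsa-miR-33a-5p was narrow, with EV up to 45.99 CPM and MPC1 KO from 46.01. With TMM the highest EV and lowest MPC1 KO levels were 68.8 and 69.2 CPM for hsa-miR-103a-3p. They were 868 and 879 for hsa-miR-107 and 60.3 and 63.8 for hsa-miR-210-3p, and hsa-miR-378a-3p had 2 to 12 counts in these libraries.

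**Figure D1:**
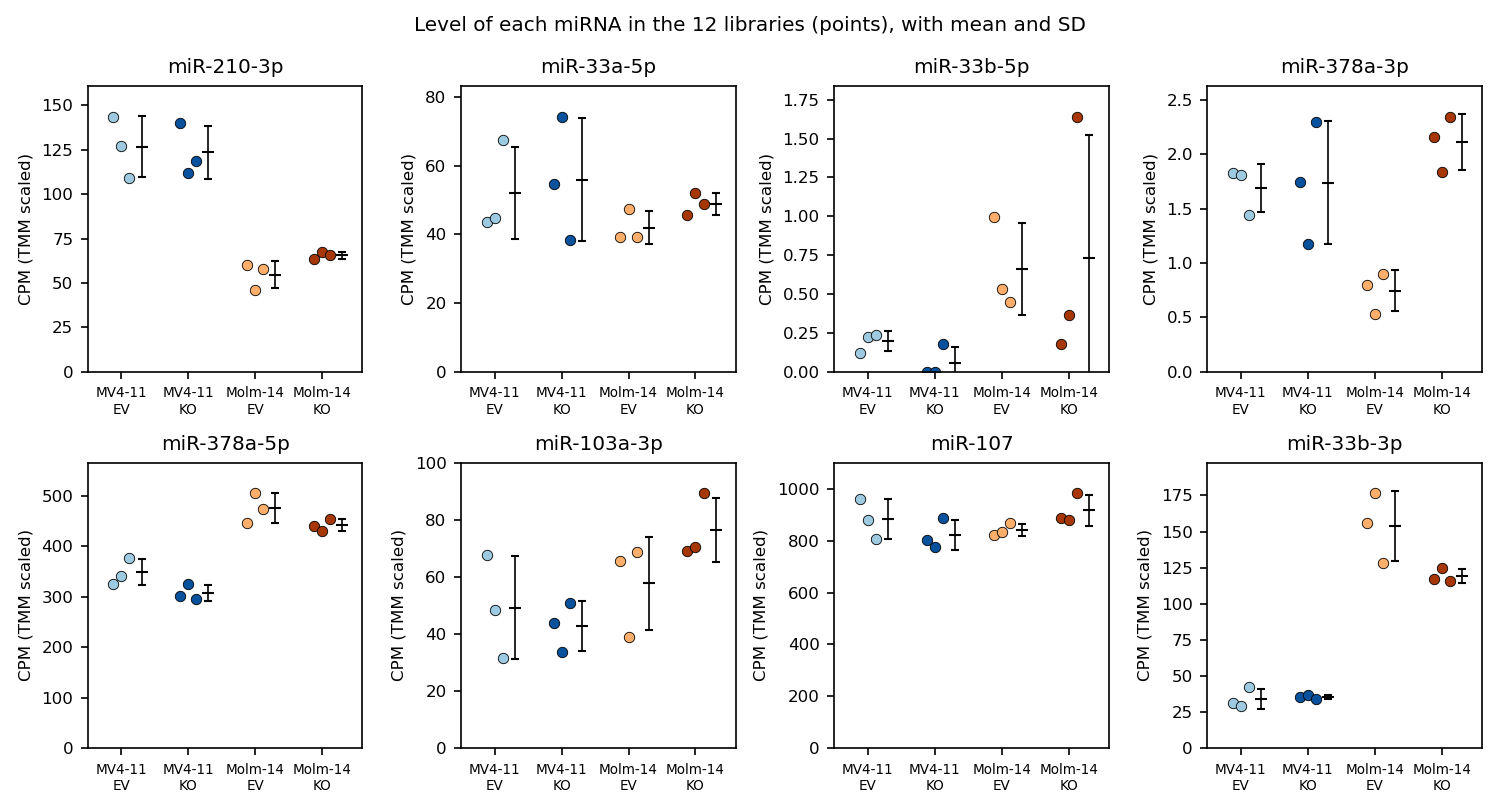
Levels (CPM, TMM scaled, linear axis from 0) of the 7 miRNAs and of hsa-miR-33b-3p in the 12 libraries, with points for libraries and, beside them, the mean and SD of each group of 3 (an SD that reaches below 0 is cut at the axis). hsa-miR-210-3p lies at 109 to 143.7 CPM in MV4-11 and 45.9 to 67.7 in Molm-14, while the MPC1 KO and EV points of MV4-11 overlap.

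hsa-miR-210-3p, the HIF-1 responsive miRNA, differed between the EV controls of the cell lines and did not pass the test for MPC1 KO in either. It had 1181, 562 and 457 counts in MV4-11 EV and 722, 669 and 672 in MV4-11 MPC1 KO. In Molm-14 the counts were 302, 172 and 258 in EV and 355, 369 and 280 in MPC1 KO. On the CPM scale the MV4-11 groups overlapped at 127 ± 17.2 in EV and 124 ± 14.8 in MPC1 KO (SD, n = 3 each). In Molm-14 the means were 54.7 ± 7.74 in EV and 65.7 ± 1.93 in MPC1 KO (SD, n = 3 each), with all 3 MPC1 KO libraries above all 3 EV libraries. With MPC1 KO its log2 fold change in MV4-11 was -0.04 (standard error 0.13, 95% interval -0.31 to 0.22, adjusted p = 0.937 from edgeR). In Molm-14 it was 0.26 (standard error 0.14, interval -0.02 to 0.54, adjusted p = 0.313 from edgeR), so a rise of up to 1.45-fold lies within the interval. The difference between the lines was 0.30 (interval -0.08 to 0.69, adjusted p = 0.403). The sign in MV4-11 depended on the scaling, from -0.15 with upper-quartile factors to 0.03, while every scaling gave 0.26 to 0.33 in Molm-14.

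Between the controls, hsa-miR-210-3p was lower in Molm-14 EV than in MV4-11 EV, at 0.432 of its level (log2 fold change -1.21, standard error 0.13, interval -1.49 to -0.93, adjusted p = 2.25e-08 from edgeR). The highest of the 6 Molm-14 libraries was below the lowest of the 6 MV4-11 libraries. It ranked 154 of 659 by level in MV4-11 EV and 206 in Molm-14 EV. The other arm, hsa-miR-210-5p, had at most 12 counts in a library, and hsa-miR-210-3p took 96.9% to 100% of the counts of the hairpin.

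Of the sterol-linked miRNAs, hsa-miR-33a-5p from the SREBF2 intron was moderately expressed and hsa-miR-33b-5p from the SREBF1 intron was nearly uncounted. hsa-miR-33a-5p had 359, 198 and 282 counts in MV4-11 EV and 282, 444 and 218 in MPC1 KO. Molm-14 gave 197, 178 and 174 in EV and 254, 283 and 208 in MPC1 KO. With TMM the groups overlapped in both lines, and MV4-11 was the more variable, with 52.0 ± 13.4 CPM in EV and 55.8 ± 17.9 in MPC1 KO against 42.0 ± 4.77 and 48.8 ± 3.12 in Molm-14 (SD, n = 3 each). In MV4-11 the log2 fold change with MPC1 KO was 0.11 (standard error 0.20, interval -0.29 to 0.52, adjusted p = 0.874 from edgeR) and 0.22 in Molm-14 (standard error 0.20, interval -0.20 to 0.64, adjusted p = 0.622 from edgeR). With single libraries left out, the MV4-11 value ran from -0.16 to 0.33. Its level did not differ detectably between the EV controls (-0.30, interval -0.72 to 0.12, adjusted p = 0.201 from edgeR).

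hsa-miR-33b-5p had 1, 1 and 1 count in MV4-11 EV and 0, 0 and 1 in MPC1 KO. Molm-14 gave 5, 2 and 2 counts in EV and 1, 2 and 7 in MPC1 KO. The counts overlapped between genotypes in both lines, and no fold is given. A count of 0 allows up to 3 counts, or 0.583 and 0.502 CPM in the MV4-11 MPC1 KO libraries 1 and 2. These limits cover counting error only. The opposite arm of the same hairpin, hsa-miR-33b-3p, had 130 to 256 counts in MV4-11 and 493 to 783 in Molm-14, so it took 98.6% to 100% of the hairpin's counts. In the miR-33a hairpin the 5p arm took 71.0% to 87.4%, and hsa-miR-33a-3p had 44 to 92 counts. The abundant arm therefore differed between the 2 hairpins in all 12 libraries.

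hsa-miR-33b-3p was higher in Molm-14 EV than in MV4-11 EV by 4.51-fold (log2 fold change 2.17, standard error 0.14, interval 1.88 to 2.47, adjusted p = 1.96e-12 from edgeR). It had 154 ± 24.2 CPM in Molm-14 EV and 34.2 ± 6.88 in MV4-11 EV (SD, n = 3 each), with no overlap. With MPC1 KO in Molm-14 it had 783, 662 and 571 counts in EV and 653, 681 and 493 in MPC1 KO, or 119 ± 4.94 CPM (SD, n = 3), and on the CPM scale MPC1 KO was wholly below EV, as for 14.9% of all tested miRNAs. The log2 fold change of -0.36 (standard error 0.13, interval -0.64 to -0.09) did not pass (adjusted p = 0.0981 from edgeR), and with single libraries left out its adjusted p ran from 0.0505 to 0.437. In MV4-11 it was 0.05 (standard error 0.15, adjusted p = 0.924 from edgeR), with a sign that turned under upper-quartile factors. hsa-miR-33a-3p had log2 fold changes of -0.14 in MV4-11 and -0.06 in Molm-14 (adjusted p = 0.845 and 0.913 from edgeR), the latter turning to 0.01 under upper-quartile factors.

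**Figure D2:**
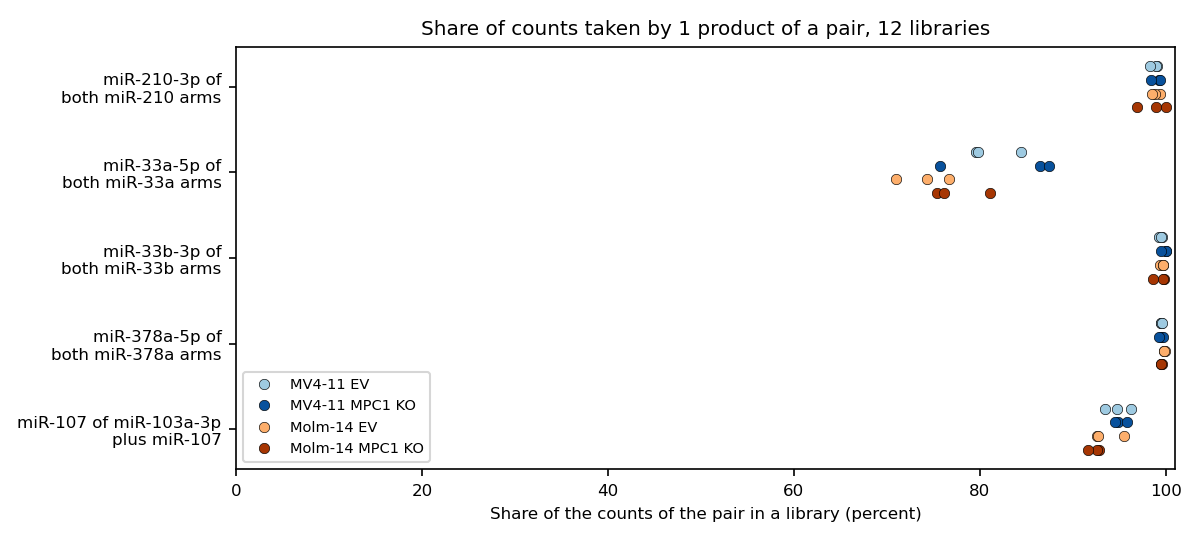
Share of counts (percent, linear axis from 0) taken by 1 product of each pair, with points for the 12 libraries colored by group. hsa-miR-378a-5p and hsa-miR-33b-3p take at least 98.6% of their hairpins, hsa-miR-33a-5p takes 71.0% to 87.4%, and hsa-miR-107 takes 91.7% to 96.2% of its pair with hsa-miR-103a-3p.

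The arms of the PPARGC1B hairpin were counted very unequally. hsa-miR-378a-5p had 2679, 1509 and 1573 counts in MV4-11 EV and 1554, 1948 and 1677 in MPC1 KO. The Molm-14 libraries held 2234, 1892 and 2107 in EV and 2447, 2342 and 1934 in MPC1 KO. hsa-miR-378a-5p took 99.2% to 99.9% of the counts of the 2 arms in every library. In MV4-11 its level was 348 ± 25.8 CPM in EV and 308 ± 15.7 in MPC1 KO (SD, n = 3 each), and the 3 MPC1 KO libraries were below the 3 EV libraries, as for 7.13% of all tested miRNAs, but with total-count scaling they overlapped (309 to 402 in EV and 311 to 353 in MPC1 KO). Its log2 fold change of -0.18 (standard error 0.09, interval -0.37 to 0.02, adjusted p = 0.415 from edgeR) was negative under every scaling. In Molm-14 the groups overlapped at 475 ± 29.5 and 441 ± 12 CPM (SD, n = 3 each), with a log2 fold change of -0.11 (standard error 0.09, interval -0.30 to 0.08, adjusted p = 0.592 from edgeR). Between the controls hsa-miR-378a-5p was higher in Molm-14 by 1.36-fold (log2 fold change 0.45, standard error 0.09, interval 0.26 to 0.64, adjusted p = 1.85e-04 from edgeR), without overlap.

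hsa-miR-378a-3p had only 2 to 15 counts in a library. It had 15, 8 and 6 counts in MV4-11 EV and 9, 7 and 13 in MPC1 KO, which overlapped. In Molm-14 it had 4, 2 and 4 counts in EV and 12, 10 and 10 in MPC1 KO, with every MPC1 KO library above every EV library. For the single libraries the exact Clopper-Pearson 95% intervals in Molm-14 reached up to 2.21 CPM of the raw library total in EV and down to 0.827 in MPC1 KO. They overlapped, but at such counts each interval is wide, and they do not test the difference between the groups. For MPC1 KO in MV4-11 the log2 fold change was 0.01 (standard error 0.41, interval -0.84 to 0.86, adjusted p = 1.0 from edgeR). In Molm-14 it was 1.44 (standard error 0.49, interval 0.43 to 2.46, unadjusted p = 0.00731, adjusted p = 0.0791 from edgeR), which did not pass the threshold. The difference between the lines was 1.43 (standard error 0.64, interval 0.10 to 2.76, adjusted p = 0.246 from edgeR). When the counts of hsa-miR-378a-3p and its 4 matched seed mates were added together (hsa-miR-378d not included), a choice made after seeing the data, the Molm-14 value was 0.38 (standard error 0.19, adjusted p = 0.266 from edgeR).

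The same miRNA was lower in Molm-14 EV than in MV4-11 EV (log2 fold change -1.16, standard error 0.50, interval -2.20 to -0.12), at an adjusted p of 0.0498 from edgeR. This call was lost with DESeq2 (adjusted p = 0.155), with no filter (0.0969), and when its seed mates were counted with it (log2 fold change -0.10, adjusted p = 0.675). It was also lost in 10 of the 12 fits that left out a library, all but those without MPC1 KO replicate 2 or 3 of MV4-11, and the adjusted p reached 0.147 without Molm-14 EV replicate 2. Of the 4 seed mates 3 were tested, and 0 of 3 passed with MPC1 KO in either line from edgeR (3.03% of all in MV4-11 and 6.83% in Molm-14). At an unadjusted p under 0.05 there were 0 in MV4-11 (14% of all) and 1 in Molm-14 (19.4% of all). The latter was hsa-miR-378c, named after its values were seen, which went from 1.84 to 3.93 CPM in Molm-14 (a log2 fold change of 1.04 with a standard error of 0.38, adjusted p = 0.101 from edgeR).

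hsa-miR-107 from the PANK1 intron was the most abundant of the 7 in every library and had the narrowest intervals together with hsa-miR-378a-5p. It had 7908, 3883 and 3370 counts in MV4-11 EV and 4129, 4637 and 5033 in MPC1 KO. Molm-14 libraries held 4109, 3129 and 3858 in EV and 4931, 4795 and 4194 in MPC1 KO. In CPM it was 883 ± 77.9 and 822 ± 59.1 in MV4-11, with overlap, and 841 ± 24.4 and 916 ± 58.0 in Molm-14 (SD, n = 3 each), where MPC1 KO and EV did not overlap with TMM but did with total-count scaling. MPC1 KO against EV gave a log2 fold change of -0.10 in MV4-11 (standard error 0.09, interval -0.30 to 0.09, adjusted p = 0.686 from edgeR). In Molm-14 it was 0.12 (standard error 0.09, interval -0.07 to 0.32, adjusted p = 0.520 from edgeR). On the linear scale the MV4-11 interval ran from 0.814 to 1.06 of the EV level. Between the EV controls it was -0.07 (interval -0.26 to 0.12, adjusted p = 0.531 from edgeR), and it passed only under upper-quartile factors (-0.25, adjusted p = 0.0319), a scaling that moved the median of all miRNAs by -0.12 in this comparison.

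hsa-miR-103a-3p, cut from both the PANK3 and the PANK2 hairpins, was far lower and more variable. It had 556, 214 and 132 counts in MV4-11 EV and 225, 202 and 289 in MPC1 KO. In Molm-14 it had 328, 146 and 306 in EV and 385, 385 and 381 in MPC1 KO. In CPM the MV4-11 EV libraries spread from 31.6 to 67.7 and enclosed the MPC1 KO libraries, while in Molm-14 EV had 57.7 ± 16.4 and MPC1 KO 76.4 ± 11.2 (SD, n = 3 each), with MPC1 KO above EV. In MV4-11 its log2 fold change was -0.23 (standard error 0.28, interval -0.85 to 0.40, adjusted p = 0.814 from edgeR) and 0.39 in Molm-14 (standard error 0.28, interval -0.22 to 1.01, adjusted p = 0.511 from edgeR). Without MV4-11 EV replicate 1 the MV4-11 sign turned, to 0.08.

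With the same seed, hsa-miR-107 had 11.0 to 25.5 counts for each count of hsa-miR-103a-3p. The log2 ratio of hsa-miR-107 to hsa-miR-103a-3p was 4.23 ± 0.42 in MV4-11 EV and 4.28 ± 0.21 in MPC1 KO (SD, n = 3 each), and the exact two-sided permutation test gave p = 0.9. In Molm-14 it was 3.91 ± 0.44 in EV and 3.59 ± 0.12 in MPC1 KO (SD, n = 3 each, exact permutation test p = 0.4), where 3 libraries against 3 cannot go below 0.1. Summed as 1 feature, which was also chosen after seeing the data, the pair had log2 fold changes of -0.14 in MV4-11 and 0.15 in Molm-14 (adjusted p = 0.636 and 0.474 from edgeR). The other product of MIR103A2, hsa-miR-103a-2-5p, had 8 to 30 counts and did not pass in either line (log2 fold change 0.34 and 0.11, adjusted p = 0.686 and 0.911 from edgeR).

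**Figure D3:**
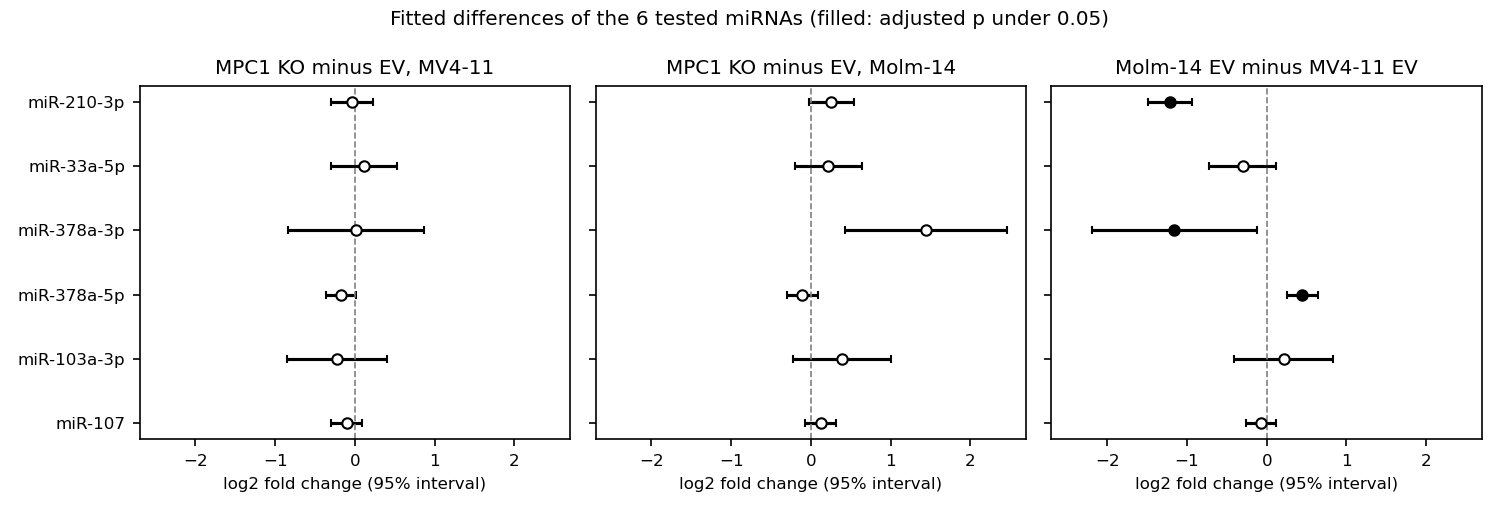
Log2 fold changes of the 6 tested miRNAs with 95% intervals from edgeR (linear axis of log2 values), for MPC1 KO against EV in each cell line and for the EV controls of the 2 lines, with filled points at an adjusted p under 0.05. None is filled for MPC1 KO, and 3 are filled between the controls, of which hsa-miR-210-3p is the farthest from 0 at -1.21.

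With TMM scaling the order of the 4 groups differed among the miRNAs. For hsa-miR-210-3p the levels went from Molm-14 EV over Molm-14 MPC1 KO to MV4-11, and only the MV4-11 groups overlapped. For hsa-miR-378a-5p they went from MV4-11 MPC1 KO over MV4-11 EV to Molm-14, and only the Molm-14 groups overlapped. For hsa-miR-107 and hsa-miR-33a-5p every pair of neighbours in the order overlapped. For hsa-miR-103a-3p only the step from Molm-14 EV to Molm-14 MPC1 KO, the highest group, was without overlap.

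Profiles over the 12 libraries were compared with those of 274 other miRNAs with a mean of at least 100 counts, by the root mean square distance of centred log2 CPM, where 0 is an identical shape. The nearest to hsa-miR-210-3p were hsa-miR-339-5p (0.125) and hsa-miR-200c-3p (0.139), where the median distance was 0.675. Those nearest to hsa-miR-107 were hsa-miR-93-5p (0.105) and hsa-miR-1226-3p (0.107), with a median of 0.466, and those nearest to hsa-miR-378a-5p were hsa-let-7i-5p (0.108) and hsa-miR-15b-3p (0.122), with a median of 0.436. hsa-miR-33a-5p was nearest to hsa-miR-22-3p (0.195) and hsa-miR-140-5p (0.216), and hsa-miR-103a-3p to hsa-miR-2110 (0.226) and hsa-miR-671-5p (0.228), with medians of 0.541 and 0.578. hsa-miR-378a-3p was nearest to hsa-miR-155-5p (0.256) and hsa-miR-222-5p (0.279), with a median of 0.629. Its profile rests on 2 to 15 counts in a library. The 0.5 CPM added before the log2 also narrows differences at its level of 0.534 to 2.34 CPM. These distances describe libraries that share a line and a fit, and carry no test.

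Other miRNAs with known roles in the same pathways were counted by lists. Of 11 miRNAs of cholesterol and lipid handling, such as hsa-miR-27a-3p, hsa-miR-128-3p and hsa-miR-148a-3p, 10 were tested. With MPC1 KO 0 of 10 passed in MV4-11 and 0 of 10 in Molm-14 from edgeR (3.03% and 6.83% of all tested miRNAs). At an unadjusted p under 0.05 there were 0 and 1 (14% and 19.4% of all). Their median log2 fold changes were 0.00 and 0.02.

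Of 9 miRNAs of glycolysis or glutamine use, 7 were tested. In MV4-11 0 of 7 passed from edgeR (3.03% of all tested miRNAs), with 2 at an unadjusted p under 0.05 (14% of all). In Molm-14, where 6.83% of all passed, 1 of 7 passed as higher and 1 as lower, with 3 at an unadjusted p under 0.05 (19.4% of all). In Molm-14 hsa-miR-143-3p, which represses hexokinase 2, fell from 179 to 97.3 CPM (-0.88 on the log2 scale, standard error 0.10, adjusted p = 3.74e-06 from edgeR), and hsa-miR-340-5p rose from 4106 to 5633 CPM (0.46, standard error 0.11, adjusted p = 0.00550). In MV4-11 hsa-miR-143-3p was also lower, at 638 CPM in EV and 506 in MPC1 KO, with MPC1 KO wholly below EV, as for 7.13% of all. Its log2 fold change there was -0.33 (standard error 0.10), which did not pass (adjusted p = 0.0674 from edgeR). The median of the list was -0.05 in MV4-11 and -0.02 in Molm-14. The stroma and smooth muscle markers, hsa-miR-143-3p and hsa-miR-145-5p, summed to 177 to 201 CPM in Molm-14 EV and 99.0 to 104 in MPC1 KO, mostly hsa-miR-143-3p itself, and their part in the fall was not tested. In MV4-11 they summed to 614 to 715 CPM in EV and 507 to 589 in MPC1 KO. By itself hsa-miR-145-5p went from 6.39 to 3.89 CPM in Molm-14, at 18 to 39 counts in EV and 18 to 22 in MPC1 KO. There MPC1 KO was wholly below EV, as for 14.9% of all, but the change did not pass (-0.73, standard error 0.32, adjusted p = 0.206 from edgeR). Its log2 fold change in MV4-11 was -0.03 (standard error 0.21, adjusted p = 0.979 from edgeR). The effect of MPC1 KO on hsa-miR-143-3p and hsa-miR-340-5p differed between the lines (-0.55 and 0.50, adjusted p = 0.0243 and 0.0404 from edgeR), but neither call held throughout. That of hsa-miR-143-3p was lost with upper-quartile factors (adjusted p = 0.143) and when EV replicate 1, EV replicate 2 or MPC1 KO replicate 2 of MV4-11 or 1 of the 3 Molm-14 MPC1 KO libraries was left out (up to 0.0964). That of hsa-miR-340-5p was lost in 9 of the 12 fits that left out a library (up to 0.129), all but those that dropped EV replicate 1, EV replicate 3 or MPC1 KO replicate 2 of MV4-11. It was also lost with RLE factors, total counts, a mean of at least 100 counts and the replicate block (up to 0.0929).

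Of 6 miRNAs that act on or respond to the HIF pathway, 5 were tested. In MV4-11 0 of 5 passed from edgeR (3.03% of all tested miRNAs), with 2 at an unadjusted p under 0.05 (14% of all). In Molm-14 1 of 5 passed (6.83% of all), with 1 at an unadjusted p under 0.05 (19.4% of all). It was hsa-miR-155-5p, which rose (0.52, standard error 0.12, adjusted p = 0.00732 from edgeR). The median of the list was -0.20 in MV4-11 and 0.13 in Molm-14, beside -0.04 and 0.26 for hsa-miR-210-3p. These medians are the values of hsa-miR-20a-5p in MV4-11 and hsa-miR-17-5p in Molm-14. hsa-miR-17-5p, hsa-miR-18a-5p and hsa-miR-20a-5p lay close together, at -0.22, -0.31 and -0.20 in MV4-11 and 0.13, 0.12 and 0.13 in Molm-14. hsa-miR-155-5p and hsa-miR-429 were at -0.04 and 0.75 in MV4-11 and 0.52 and 0.32 in Molm-14. The medians therefore reflect hsa-miR-17-5p, hsa-miR-18a-5p and hsa-miR-20a-5p more than the list as a whole. The list ran from -0.31 (hsa-miR-18a-5p) to 0.75 (hsa-miR-429) in MV4-11, and from 0.12 to 0.52 in Molm-14. The effect on hsa-miR-18a-5p differed between the lines (0.43, adjusted p = 0.0378 from edgeR), but 10 of the 12 fits that left out a library lost this call (adjusted p up to 0.132), all but those that dropped EV replicate 3 or MPC1 KO replicate 2 of MV4-11, and so did RLE factors, total counts, no filter and the replicate block (up to 0.144).

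All 7 relatives of miR-103 and miR-107 that carry AGCAGC were tested, members of the miR-15/16 group that repress cell cycle genes. In MV4-11 hsa-miR-503-5p rose from 261 to 343 CPM (0.40, standard error 0.09, adjusted p = 0.00949 from edgeR), but the call was lost with upper-quartile factors, with each line fitted alone, and when EV replicate 1, EV replicate 2 or MPC1 KO replicate 2 of MV4-11 was dropped, with the adjusted p as high as 0.107. In Molm-14 hsa-miR-497-5p rose from 15.3 to 27.7 CPM (0.86, standard error 0.19, adjusted p = 0.00364 from edgeR). The median of the 7 was 0.37 in MV4-11 and 0.23 in Molm-14. In MV4-11 they ran from -0.31 to 0.53, with hsa-miR-16-5p, hsa-miR-15a-5p and hsa-miR-15b-5p below 0 (-0.31, -0.13 and -0.02). In Molm-14 they ran from -0.04, for hsa-miR-503-5p, to 0.86. Of all tested miRNAs 3.03% were called in MV4-11 and 6.83% in Molm-14. The effect on hsa-miR-503-5p differed between the lines (-0.43, adjusted p = 0.0404 from edgeR), a call lost in 10 of the 12 fits that left out a library (up to 0.163), all but those without MV4-11 EV replicate 3 or Molm-14 EV replicate 3. RLE, upper-quartile and total-count scaling, no filter, DESeq2 and the replicate block lost it too (up to 0.337).

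**Figure D4:**
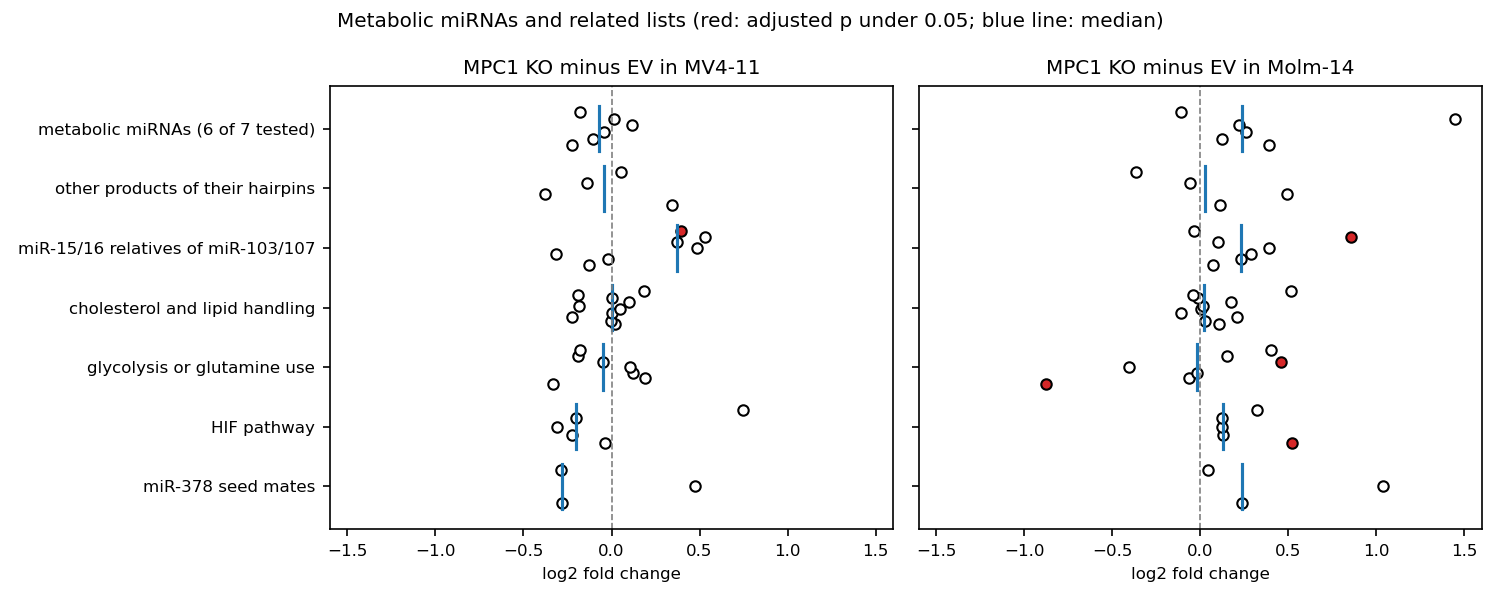
Log2 fold changes with MPC1 KO (linear axis of log2 values) in MV4-11 and Molm-14 for the metabolic miRNAs and the related lists, with 1 point per tested miRNA, red at an adjusted p under 0.05, and a blue line at each list's median. No metabolic miRNA is red, and the red points are hsa-miR-503-5p in MV4-11 and hsa-miR-497-5p, hsa-miR-143-3p, hsa-miR-340-5p and hsa-miR-155-5p in Molm-14.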

How the data were processed

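Small RNA from MPC1 KO and EV cells of MV4-11 and Molm-14 was prepared with the NEBNext small RNA kit and sequenced, and the sample labels assigned the 12 libraries to 4 groups of 3. The authors deposited raw counts, whole numbers of reads per mature miRNA in each library, without normalization. The submitters' processing notes name STAR 2.5.2, featureCounts 1.5.1 and GRCh38, and the treatment of reads that match several places is not given in the sources used here.

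From these counts, edgeR 4.0.16 in R 4.3.3 was run on all 12 libraries with filterByExpr (minimum count 10), TMM factors and its quasi-likelihood fit (robust, 1 mean per group). The Benjamini-Hochberg adjustment ran over 659 miRNAs, with a threshold of 0.05. Standard errors and 95% intervals were derived from the F statistic of each contrast. The fit was tested on simulated counts with known changes, drawn with the spread that the fit itself had estimated. These changes were larger than most of those given here, so the run does not show whether small changes would be found. Libraries held 3870104 to 8683456 counts, so miRNAs of a few counts carry wide intervals. Ratios within a pair used an exact two-sided permutation test over libraries. Pairs with 3 or fewer counts in a library were not tested as ratios, and their shares rest on few counts of the minor product.

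The 7 miRNAs and the related lists, which came from general knowledge of their roles, were chosen with earlier results of these data known. Of the lists, miRNAs past the threshold were named, and all other products of the same hairpins that were listed. A few other list members were named after their values were seen. Those nearest in profile were the 2 at the smallest distance for each. hsa-miR-103a-1-5p and hsa-miR-103b were not analysed here. Alternatives were RLE, upper-quartile and total-count scaling, other filters, DESeq2 1.42.0, limma-voom (limma 3.58.1), each line alone, a replicate block, a threshold of 0.1, and each library left out. Mature sequences were matched to RefSeq by name for 1068 of 1204 miRNAs, and to GRCh38 by exact search.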

Additional observations from a re-analysis of the deposited data

How the results depend on the processing

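Of the 6 tested miRNAs, 0 passed for MPC1 KO in MV4-11 and 0 for the difference between the lines under every alternative run. In Molm-14 it was 0 under every alternative except the threshold of 0.1, at which 1 passed (hsa-miR-378a-3p). Between the EV controls 2 to 4 passed over the alternatives and 2 to 3 with a library left out. There hsa-miR-210-3p and hsa-miR-378a-5p passed in every fit, and hsa-miR-378a-3p was lost in the fits given above and was not tested at a mean of at least 100 counts. Same-numbered MPC1 KO and EV libraries correlated at -0.134 to 0.0993 in MV4-11 and -0.0221 to 0.123 in Molm-14, so the numbers were not taken as pairs. With the replicate block 0, 0, 0 and 2 of the 6 passed for MPC1 KO in MV4-11, in Molm-14, for the difference and between the EV controls, where hsa-miR-378a-3p had an adjusted p of 0.0541 from edgeR. Over all miRNAs in MV4-11 the block gave 23 calls and in Molm-14 52, against 20 and 45. Counts over all miRNAs moved by over 1.5 times for MV4-11, to 34 at a threshold of 0.1 and 31 with DESeq2, and to 12 without MV4-11 MPC1 KO replicate 1, 38 without Molm-14 EV replicate 2 and 34 without Molm-14 EV replicate 3. In Molm-14 77 passed at 0.1, and between the EV controls 212 of those with a mean of at least 100 counts, where fewer miRNAs were tested. For the difference, 44 calls fell to between 22 and 28 without any Molm-14 MPC1 KO replicate, MV4-11 EV replicate 1 or 2, or MV4-11 MPC1 KO replicate 1 or 3. Upper-quartile factors moved the median of all miRNAs to -0.12 in MV4-11, 0.05 in Molm-14 and 0.18 for the difference. They gave 10 higher and 15 lower calls in MV4-11 (13 and 7 with TMM), 30 and 23 in Molm-14 (18 and 27), and 31 and 13 for the difference (16 and 28). Total-count scaling gave 20 higher and 6 lower in MV4-11. The cause of the other changes was not tested. The log2 ratio of hsa-miR-107 to hsa-miR-103a-3p with MPC1 KO moved from 0.05 to between -0.15 and 0.27 in MV4-11, and from -0.32 to between -0.45 and -0.06 in Molm-14, with a library left out. hsa-miR-378a-3p had 2 to 15 counts in a library and hsa-miR-33b-5p 0 to 7, with wide counting intervals.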
